A study of Homo sapiens with 4 samples.

Results

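TRiC, also called CCT, is the chaperonin of the eukaryotic cytosol. Its 8 subunits, TCP1, CCT2, CCT3, CCT4, CCT5, CCT6A, CCT7 and CCT8, are encoded by separate genes and sit side by side in each of its stacked rings. ATP binding and hydrolysis by the subunits open and close a central chamber in which newly made actin, tubulin, WD40-repeat proteins and other substrates fold. Folding demand is high in fast-growing tumour cells, and MYCN, a transcription factor of the MYC family that binds DNA as a dimer with MAX, is known to drive genes of ribosome and protein production. The members are the known subunits of the complex, taken by gene symbol with earlier results of these data known, and all 8 were found among the 26364 rows of the expression tables.

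RNA-seq was performed in BE(2)C cells, a clone of the human SK-N-BE(2) neuroblastoma line with amplified MYCN, given as BE2C and wild type in the labels. There were 2 samples treated with non-targeting control siRNA (Ctrl) and 2 treated with an siRNA against MYCN (MYCN KD). Per the labels, both groups received 80 nM siRNA with a lipid reagent for 6 h, and total RNA was taken the next day. Both groups thus share the line, the medium and the transfection, and a single siRNA sequence was used for the knockdown.

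Levels are given in RPKM (reads per kilobase of gene, scaled to the mapped reads of the sample). They are divided by gene length and can be compared between genes as far as the length used fits the transcripts present. The totals to which the RPKM are scaled, recovered from the steps of the values, came to between 29055819 and 34142988 per sample. Each subunit had 4591 to 45474 recovered counts in each sample. By the paper's methods the RPKM rest on normalised counts, so that these are not raw reads. MYCN was 1068 and 1073 RPKM in the Ctrl samples against 720 and 718 RPKM after MYCN KD, which gave a log2 fold change of -0.57 (SE 0.0286, adjusted p = 0.00361 by limma). The MYCN transcript was thus lowered and far from absent. The noradrenergic neuroblastoma markers PHOX2A, HAND2, GATA2, GATA3, ISL1 and DBH were present, the lowest value of any being 23.8 RPKM in ISL1. Of these, PHOX2A, HAND2, ISL1 and DBH were called higher in MYCN KD, and GATA2 and GATA3 did not pass the test. Summed RPKM of 6 mesenchymal or fibroblast markers was 12.6 in the lowest Ctrl sample and 19.6 and 16.7 in the MYCN KD samples, both of which lay above both Ctrl samples, with PRRX1 listed at 0, and COL1A1 and DCN among them were called higher. The 6 blood and endothelial markers summed to between 0.135 and 0.158 RPKM in every sample. The part of these marker differences in the results for TRiC was not tested.

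The start regions of the subunit genes are shown first, since MYCN binds the E-box CACGTG and several subunit genes share their start region with another gene. RefSeq windows (GRCh38.p14) of 300 bases, 250 before and 50 from the transcription start on, were held for 7 of the 8 subunits in 9 windows, and CCT6A was not among them. Each window occurred exactly 1 time in GRCh37 (hg19, the build of the expression tables), and its position is given there. The windows of CCT3 and CCT8 below were selected because they hold the noncanonical E-box CACGCG. That of TCP1 was selected for a heat shock element core, and that of CCT4 for the start of COMMD1 on the other strand. The TCP1 window takes in such a start too, that of MRPL18. CCT3, CCT8, TCP1 and CCT4 lie on the minus strand. Their sequences are written 5′ to 3′ along that strand with motif matches in capitals.
CCT3 (chr1:156308034-156308333): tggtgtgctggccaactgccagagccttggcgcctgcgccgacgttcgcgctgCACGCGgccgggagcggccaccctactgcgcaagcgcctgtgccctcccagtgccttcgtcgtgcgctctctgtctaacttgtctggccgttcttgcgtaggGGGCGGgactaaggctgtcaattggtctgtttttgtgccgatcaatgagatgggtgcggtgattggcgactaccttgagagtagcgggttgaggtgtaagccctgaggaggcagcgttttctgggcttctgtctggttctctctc
CCT8 (chr21:30445920-30446219): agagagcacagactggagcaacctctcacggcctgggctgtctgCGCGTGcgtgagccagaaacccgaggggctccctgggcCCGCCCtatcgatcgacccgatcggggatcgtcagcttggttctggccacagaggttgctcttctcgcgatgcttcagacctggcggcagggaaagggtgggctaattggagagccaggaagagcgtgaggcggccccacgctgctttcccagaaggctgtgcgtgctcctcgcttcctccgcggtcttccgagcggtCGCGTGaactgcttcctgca
TCP1 (chr6:160210585-160210884): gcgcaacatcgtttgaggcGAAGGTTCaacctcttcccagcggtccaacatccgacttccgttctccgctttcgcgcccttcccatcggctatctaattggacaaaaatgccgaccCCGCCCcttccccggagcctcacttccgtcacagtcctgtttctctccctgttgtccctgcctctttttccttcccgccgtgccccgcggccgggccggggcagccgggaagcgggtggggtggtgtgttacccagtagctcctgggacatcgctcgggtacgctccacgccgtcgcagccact
CCT4 (chr2:62115757-62116056): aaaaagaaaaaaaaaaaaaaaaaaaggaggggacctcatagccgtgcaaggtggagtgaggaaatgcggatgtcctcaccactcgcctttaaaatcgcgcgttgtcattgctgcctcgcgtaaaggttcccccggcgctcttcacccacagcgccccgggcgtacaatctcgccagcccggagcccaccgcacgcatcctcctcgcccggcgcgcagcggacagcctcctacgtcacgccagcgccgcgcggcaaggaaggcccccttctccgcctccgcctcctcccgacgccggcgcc

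The letters CACGTG were found in 0 of the 9 subunit windows on either strand, against 7.26% of 35116 windows of all genes. CACGCG, searched on both strands (CGCGTG on the reverse), was found in CCT3, with its first letter at position -197 from the start, and in CCT8, at positions -206 and 30, against 11.4% of all windows. The heat shock element core GAANNTTC, the recognition motif of the HSF factors, was found in TCP1 and in the more downstream of the windows of CCT2, against 6.77% of all windows. GGGCGG, the GC box bound by SP1, was found in CCT2, CCT3, CCT7, CCT8 and TCP1, against 45.0% of all windows. No match overlapped a match to another motif. The GC content of the windows ran from 57.7% to 70.0%, with a median of 58.7% over all windows. For CCT3, CCT5 and CCT7 the RefSeq start lay 29581, 608 and 888 bases inside the outermost GENCODE start, so that these windows do not cover every start of those genes. The matches describe letters in these windows only.

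To ask whether TRiC RNA changed when MYCN was lowered, each subunit was compared between MYCN KD and Ctrl. All 8 subunits were lower in MYCN KD by limma at an adjusted p under 0.05 over the 11411 genes whose RPKM averaged 1 or more, where 22.8% of genes were called lower and 25.3% higher. All 8 passed the filter on low values in both groups by a wide margin. The decrease was moderate and ran from 21.7% in CCT3 to 34.7% in CCT5, with a median of 30.7%. The median log2 fold change of the 8 was -0.52, against 0.03 over all tested genes, and 9.36% of tested genes had a lower log2 fold change than that median. In every subunit both MYCN KD values lay below both Ctrl values, a pattern seen in 35.8% of tested genes. When samples were rescaled by median-of-ratios size factors, the calls over all genes moved from 2599 lower and 2890 higher to 3254 lower and 2417 higher. All 8 subunits were called lower under that scaling too.

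**Figure D1:**
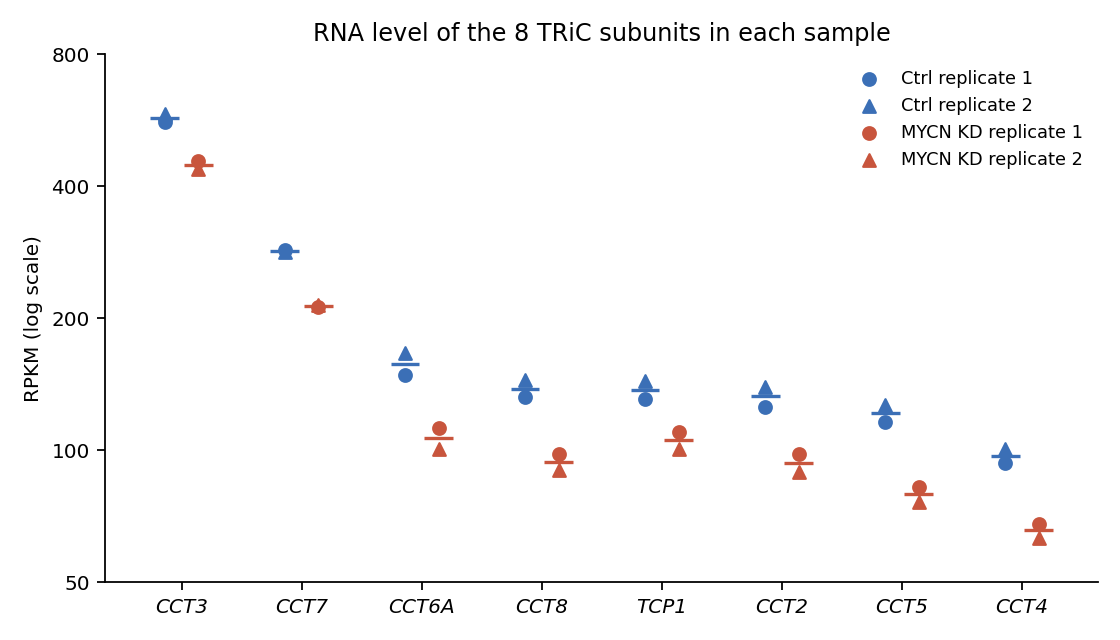
RPKM (log axis) of each TRiC subunit in the 2 Ctrl and 2 MYCN KD samples, ordered by the Ctrl mean, with horizontal bars at the group means (n = 2). For each subunit both MYCN KD points sit below both Ctrl points, from CCT3 (559 and 583 against 456 and 439) down to CCT4 (93.3 and 101 against 67.9 and 63.2).

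CCT5, the epsilon subunit, in which a mutation causes a hereditary sensory neuropathy, lies on chromosome 5 (10250041 to 10266501, plus strand, ENSG00000150753; all gene positions are GRCh37). It was 116 and 127 RPKM in the Ctrl samples against 82.6 and 75.9 RPKM after MYCN KD. This was the largest log2 fold change of the 8, -0.61 (SE 0.0721, adjusted p = 0.00991 by limma), and the values of the groups were well apart. CCT4, the delta subunit (chromosome 2, 62095220 to 62115806, minus strand, ENSG00000115484), was 93.3 and 101 RPKM in the Ctrl samples against 67.9 and 63.2 RPKM after MYCN KD. Its log2 fold change was -0.56 (SE 0.0645, adjusted p = 0.00950 by limma), and it was the lowest subunit in each of the 4 samples.

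CCT6A, the zeta subunit (chromosome 7, 56119378 to 56131682, plus strand, ENSG00000146731), was 148 and 166 RPKM in the Ctrl samples against 112 and 101 RPKM after MYCN KD. The log2 fold change was -0.56 (SE 0.0917, adjusted p = 0.0188 by limma), with the widest standard error of the 8. CCT8, the theta subunit (chromosome 21, 30428126 to 30446118, minus strand, ENSG00000156261), was 132 and 144 RPKM in the Ctrl samples against 97.8 and 90.0 RPKM after MYCN KD, which gave a log2 fold change of -0.55 (SE 0.0723, adjusted p = 0.0120 by limma). CCT2, the beta subunit, also described as a receptor for the autophagy of protein aggregates, lies on chromosome 12 (69979206 to 69995350, plus strand, ENSG00000166226). It was 126 and 139 RPKM in the Ctrl samples against 98.2 and 89.0 RPKM after MYCN KD, which gave a log2 fold change of -0.50 (SE 0.0830, adjusted p = 0.0194 by limma). In these 3 subunits the lowest Ctrl value exceeded the highest MYCN KD value.

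The remaining subunits fell less. CCT7, the eta subunit (chromosome 2, 73460548 to 73480149, plus strand, ENSG00000135624), was 286 and 283 RPKM in the Ctrl samples against 212 and 215 RPKM after MYCN KD. With replicates this close its log2 fold change of -0.41 had the smallest standard error and the lowest adjusted p of the 8 (SE 0.0299, adjusted p = 0.00484 by limma). TCP1, the alpha subunit, named from the mouse t-complex (chromosome 6, 160199530 to 160210735, minus strand, ENSG00000120438), was 131 and 143 RPKM in the Ctrl samples against 110 and 101 RPKM after MYCN KD. Its log2 fold change was -0.38 (SE 0.0742, adjusted p = 0.0268 by limma), and it was the 1 subunit whose call was lost under an alternative, at -0.32 (limma, adjusted p = 0.0594) once all samples were brought to an equal RPKM total. CCT3, the gamma subunit (chromosome 1, 156278759 to 156337664, minus strand, ENSG00000163468), was the highest of the 8 at 559 and 583 RPKM in the Ctrl samples against 456 and 439 RPKM after MYCN KD. It had the smallest log2 fold change, -0.35 (SE 0.0425, adjusted p = 0.0103 by limma).

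**Figure D2:**
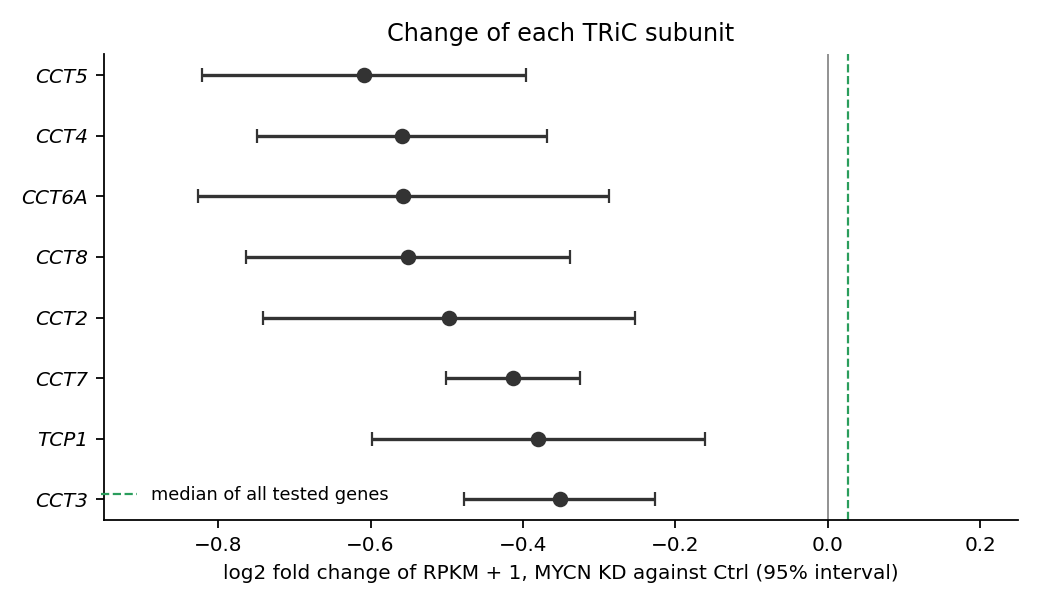
Log2 fold change of RPKM + 1 in MYCN KD against Ctrl for each subunit, with 95% intervals from limma (2 samples per group) and a dashed line at the median of all tested genes (0.03). All 8 intervals lie below 0, and each overlaps the intervals of the other subunits.

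With 2 samples per group an exact two-sided permutation test of a single gene cannot go below p = 0.333, which each subunit reached, so that the calls rest on the spread that limma shares across genes. Bulk RNA-seq cannot tell fewer cells expressing a gene from less RNA per cell, and RPKM gives each gene relative to the other RNA of its sample. In 7 of the 8 subunits, CCT7 being the exception, replicate 2 was the higher sample in Ctrl and replicate 1 the higher sample in MYCN KD, and the deviations of same-numbered samples were opposite over all tested genes (Pearson's r = -0.98 across 11411 genes, which are not independent replicates). The limma fit counts the deviations of the 2 groups as independent. Its standard errors, intervals and adjusted p-values may therefore be too small here.

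The subunits were present at unequal RNA levels although the protein complex holds them side by side in equal number. Summed over the 8, TRiC RNA came to 1639 ± 68.0 RPKM with control siRNA and 1205 ± 45.8 RPKM with MYCN siRNA (each SD, n = 2), a fall of 26.5%. CCT3 made up 35.1% and 34.6% of the sum in Ctrl and 36.9% and 37.4% in MYCN KD, and CCT7 between 16.8% and 18.3% in the 4 samples. The highest subunit exceeded the lowest by 5.79 to 6.94 times, whereas the 6 subunits other than CCT3 and CCT7, set apart after their values were seen, spanned 1.59 to 1.65 times within a sample. The sum over these 6 fell by 30.6%. In the percentile order of the genes tested, CCT4 stood at 88.8 to 93.1 and CCT3 at 99.0 to 99.3.

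In Ctrl the order of mean RPKM was CCT3, CCT7, CCT6A, CCT8, TCP1, CCT2, CCT5 and CCT4. This order depends on the gene lengths behind the RPKM, recovered as 4032 bases for CCT5 and 2032 to 2664 bases for the other subunits. By recovered counts CCT5 stood above CCT6A in each sample (15974 against 13467 in Ctrl replicate 1). CCT8 and TCP1, TCP1 and CCT2, and CCT2 and CCT5 overlapped over the 2 samples, although the first of each pair was the higher within each sample. In MYCN KD the order was CCT3, CCT7, CCT6A, TCP1, CCT8, CCT2, CCT5 and CCT4, and here CCT6A overlapped TCP1 and CCT8 overlapped CCT2. TCP1 thus stood above CCT8 in both MYCN KD samples (110 and 101 against 97.8 and 90.0 RPKM) and just below it in both Ctrl samples (131 and 143 against 132 and 144 RPKM).

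As a share of the summed TRiC RNA, CCT3 and TCP1 stood higher in each MYCN KD sample than in any Ctrl sample. CCT4, CCT5, CCT6A and CCT8 were lower, with CCT5 going from a mean of 7.40% to 6.57%, and CCT2 and CCT7 overlapped between the groups. These shares sum to the whole in each sample, so that a rise of the share of CCT3 lowers the others, and they are given as a description with no test.

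**Figure D3:**
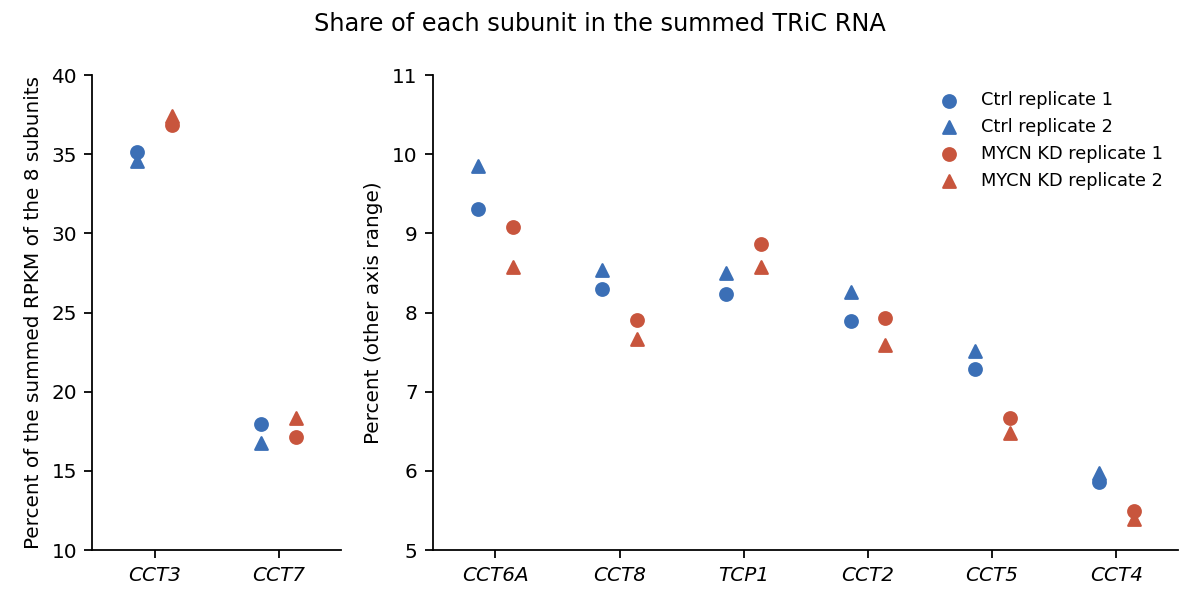
Percent of the summed RPKM of the 8 subunits taken by each, in the 2 Ctrl and 2 MYCN KD samples, with CCT3 and CCT7 on an axis of 10 to 40% and the others on an axis of 5 to 11%. The share of CCT3 was 34.6% to 35.1% in Ctrl and 36.9% to 37.4% in MYCN KD, and that of CCT5 was 7.29% and 7.51% against 6.67% and 6.48%.

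Several subunit genes start within 1000 bases of a gene on the other strand, measured from the outermost GENCODE starts, and these neighbours were compared with them. Measured from the RefSeq starts of the windows, PRADC1 would lie more than 1000 bases from CCT7. TSACC, described below with the overlapping genes, would then lie within 1000 bases of the start of CCT3. COMMD1, a copper and NF-kB regulator that starts 53 bases from CCT4, was 15.3 and 14.9 RPKM in the Ctrl samples against 17.6 and 18.0 RPKM after MYCN KD. It was called higher, with a log2 fold change of 0.22 (SE 0.0392, adjusted p = 0.0215 by limma), while CCT4 was called lower. PSPH, the last enzyme of serine synthesis, starts 81 bases from CCT6A, and it was 21.6 and 23.3 RPKM in the Ctrl samples against 17.6 and 16.3 RPKM after MYCN KD. It was called lower with CCT6A, with a log2 fold change of -0.38 (SE 0.0657, adjusted p = 0.0205 by limma).

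The other neighbours did not pass the test. MRPL18, a mitochondrial ribosomal protein gene 109 bases from TCP1, had a log2 fold change of -0.05 (limma, adjusted p = 0.261) at 70.3 to 73.7 RPKM. ATPSCKMT, listed under its older symbol FAM173B, starts 32 bases from CCT5 and had a log2 fold change of 0.01 (limma, adjusted p = 0.880) at 2.99 to 3.33 RPKM. PRADC1, 181 bases from CCT7, was 37.4 and 33.3 RPKM in the Ctrl samples against 40.1 and 44.9 RPKM after MYCN KD (log2 fold change 0.26, adjusted p = 0.0972 by limma). MIR3913-2, 603 bases from CCT2, was listed at 0. Of the 5 tested neighbours, 1 was thus called in the direction of its subunit, 1 in the opposite direction and 3 in neither. Shares this small are near those over all tested genes, 22.8% lower and 25.3% higher, and are no result about the neighbours. Whether subunit and neighbour differed was not tested in a model of its own.

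**Figure D4:**
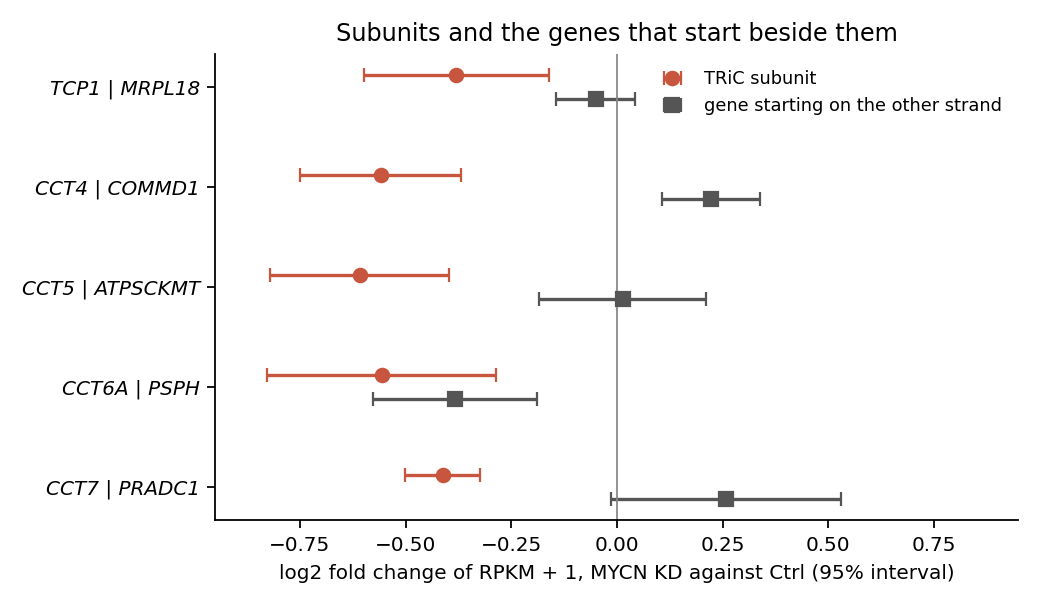
Log2 fold change of RPKM + 1 in MYCN KD against Ctrl, with 95% intervals from limma, for 5 TRiC subunits (circles) and for the gene that starts beside each on the other strand (squares). PSPH lies below 0 with CCT6A, COMMD1 lies above 0, and the intervals of MRPL18, ATPSCKMT and PRADC1 include 0.

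Genes that overlap a subunit were looked at because it is not given in the sources used here whether the reads were counted by strand. ACAT2, which shares 615 bases with the 3′ end of TCP1 on the other strand, was 47.2 and 50.4 RPKM in the Ctrl samples against 55.0 and 51.6 RPKM after MYCN KD (log2 fold change 0.12, adjusted p = 0.160 by limma). TSACC, on the other strand within the span of CCT3, was between 1.54 and 2.26 RPKM. The snoRNAs SNORA20 and SNORA29 inside TCP1 and SNORA15 inside CCT6A reached at most 2.45 RPKM, and SNORA20, the 1 of the 3 that was tested, had a log2 fold change of 0.57 (limma, adjusted p = 0.146). Its values of 1.11, 0.711, 1.30 and 2.45 RPKM are too low to read a direction from. Pseudogenes that carry the name of CCT6 were listed with low values, CCT6P1 at 2.38 to 3.13 RPKM and CCT6P3 at 0.627 to 0.763 RPKM, and reads shared with CCT6A could be divided among them.

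Of 5 paralogs of the TRiC subunits 2 were tested, and limma called 0 of them, as did limma voom on the recovered counts, and 0 of them had an unadjusted p under 0.05. MKKS, BBS10 and BBS12 encode chaperonin-like proteins of the Bardet-Biedl syndrome complex that help to build the BBSome. MKKS was 17.4 and 19.9 RPKM in the Ctrl samples against 16.3 and 14.3 RPKM after MYCN KD (log2 fold change -0.27, adjusted p = 0.110 by limma). BBS10 was 2.90 and 3.94 RPKM in the Ctrl samples against 6.19 and 4.61 RPKM after MYCN KD, which gave a log2 fold change of 0.53 (limma, adjusted p = 0.0967) that passed the test when any 1 library was left out. MKKS was called lower in 3 of 13 alternatives, among them the fits without Ctrl replicate 1 and without MYCN KD replicate 1. BBS12, at 0.228 to 0.546 RPKM, and CCT6B, the testis form of the zeta subunit, at 0.370 to 0.544 RPKM, were too low to be tested, and CCT8L2 was listed at 0.

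Prefoldin captures unfolded actin and tubulin and hands them to TRiC. Of its 6 subunits 5 were tested, and 2 were called lower, against 22.8% of all tested genes. The median log2 fold change was -0.18. PFDN2 was 155 and 156 RPKM in Ctrl and 102 RPKM in both MYCN KD samples (log2 fold change -0.60, adjusted p = 0.00360 by limma). PFDN4 was 41.6 and 41.0 RPKM in the Ctrl samples against 30.6 and 31.1 RPKM after MYCN KD (log2 fold change -0.41, adjusted p = 0.00592 by limma). PFDN1 (log2 fold change -0.11), PFDN5 (-0.03), which encodes a protein that binds MYC, and VBP1 (-0.18) did not pass the test. PFDN6 was listed at 0.0160 to 0.0256 RPKM.

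The near absence of PFDN6 was shared by its region. Between TUBB and PFDN6 on chromosome 6 (30685212 to 33266178) 107 of 108 protein-coding genes (99.1%) had a mean RPKM under 1, against 44.6% of 17977 protein-coding genes elsewhere. HSPA1A, HSPA1B and the tubulin gene TUBB lie at or within these bounds, so that their low values lie in a region where nearly all genes were low (0.247 to 0.333, 0.0273 to 0.0436 and 3.91 to 4.12 RPKM). The cause was not tested.

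Among 5 regulators that bind TRiC, 4 were tested and 1 was called lower, a share near the 22.8% of all tested genes. PDCD5, which binds the chaperonin and restrains tubulin folding, was 111 and 116 RPKM in the Ctrl samples against 84.8 and 81.2 RPKM after MYCN KD (log2 fold change -0.45, adjusted p = 0.00785 by limma). PDCL, the partner of TRiC in the folding of G protein beta subunits, had a log2 fold change of 0.33, PDCL3 of -0.29 and TXNDC9 of -0.04, none of them called, and PDCL2 was at or under 0.0751 RPKM. PDCL was called higher without Ctrl replicate 2 or without MYCN KD replicate 2, and PDCL3 lower without Ctrl replicate 1 or without MYCN KD replicate 1.

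The R2TP complex and its prefoldin-like partners work with HSP90 on the assembly of large complexes, among them RNA polymerases. Of their 7 genes 4 were called lower, against 22.8% of all tested genes, with a median log2 fold change of -0.25. RUVBL1 and RUVBL2, the paired ATPases of the complex, went from 210 and 201 to 118 and 124 RPKM (log2 fold change -0.76, adjusted p = 0.00414 by limma) and from 228 and 199 to 136 and 155 RPKM (-0.55, adjusted p = 0.0272 by limma). URI1, the scaffold of the prefoldin-like part, was 20.2 and 24.1 RPKM in the Ctrl samples against 14.0 and 11.9 RPKM after MYCN KD (log2 fold change -0.73, adjusted p = 0.0219 by limma). RPAP3 (log2 fold change -0.25) was called lower with all samples and not when any 1 library was left out, with an adjusted p of up to 0.278 by limma over its alternatives. UXT (-0.10), PDRG1 (-0.08) and PIH1D1 (-0.19) did not pass the test.

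Actin and tubulin are the main substrates of TRiC, and their genes were more often called higher than lower. Of the 14 genes 7 were called higher, 1 lower and 6 in neither direction, against 25.3% higher and 22.8% lower of all tested genes, and the median log2 fold change was 0.31. Without TUBB, whose region of chromosome 6 is described above, the counts over 13 genes were 7, 1 and 5 and the median was 0.39. TUBB2A, a beta-tubulin, was 51.5 and 53.3 RPKM in the Ctrl samples against 106 and 103 RPKM after MYCN KD (log2 fold change 0.98, adjusted p = 0.00359 by limma). TUBA1A, the main alpha-tubulin of young neurons, went from 1021 and 1009 RPKM to 1873 and 1894 RPKM (log2 fold change 0.89, adjusted p = 0.00359 by limma). TUBB3, a neuronal beta-tubulin, rose from 436 and 403 RPKM to 625 and 675 RPKM (log2 fold change 0.63, adjusted p = 0.00820 by limma). TUBA4A, at 6.48 and 6.53 RPKM in the Ctrl samples against 3.93 and 3.91 RPKM after MYCN KD, was the 1 called lower (log2 fold change -0.61, adjusted p = 0.00425 by limma). Summed over the 14 genes, the level was 9876 and 9239 RPKM with control siRNA against 12675 and 13509 RPKM with MYCN siRNA.

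Other known substrates were mixed. Of 14 genes 7 were called lower, 2 higher and 5 in neither direction, against 22.8% lower and 25.3% higher of all tested genes. The median log2 fold change was -0.24. CCNE1, a cyclin of the G1 to S transition, was 14.2 and 15.4 RPKM in the Ctrl samples against 10.0 and 9.25 RPKM after MYCN KD (log2 fold change -0.57, adjusted p = 0.0107 by limma). The mitotic kinase gene PLK1 was called lower as well (log2 fold change -0.48, adjusted p = 0.0250 by limma). GNB1, a G protein beta subunit with WD40 repeats, was 230 and 237 RPKM in the Ctrl samples against 352 and 342 RPKM after MYCN KD, which gave a log2 fold change of 0.57 (limma, adjusted p = 0.00427).

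Tubulin folding cofactors take tubulin over from TRiC and join alpha and beta chains. Of the 6 genes 2 were called lower, 1 higher and 3 in neither direction. Over all tested genes 22.8% were called lower and 25.3% higher, so that counts this small are no result about the cofactors. TBCB was called higher (log2 fold change 0.36, adjusted p = 0.0270 by limma), a call lost with median-of-ratios size factors (limma, adjusted p = 0.0841). ARL2, the GTPase of the cofactor complex, was called lower (log2 fold change -0.36, adjusted p = 0.0235 by limma). TBCE was called lower with all samples (-0.27, adjusted p = 0.0219 by limma) and not when any 1 library was left out. TBCA (log2 fold change -0.17), TBCC (0.09) and TBCD (0.03) did not pass the test, and the median of the 6 was -0.07.

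TRiC receives part of its substrates from HSP70, and the HSP70 and HSP90 system was lower in large part. Of 15 genes limma called 10 lower and 0 higher, against 22.8% lower and 25.3% higher of all tested genes. The median log2 fold change was -0.44, and at an unadjusted p under 0.05 the counts were 12 and 0. Limma voom on the recovered counts also called 10 lower and 0 higher. The HSP90 partner gene FKBP4 was 134 and 131 RPKM in the Ctrl samples against 60.3 and 61.7 RPKM after MYCN KD (log2 fold change -1.10, adjusted p = 0.00359 by limma). AHSA1, which stimulates the ATPase of HSP90, was 234 and 239 RPKM in the Ctrl samples against 146 and 143 RPKM after MYCN KD (log2 fold change -0.71, adjusted p = 0.00359 by limma). HSP90AB1, the constitutive HSP90, was 956 and 980 RPKM in the Ctrl samples against 611 and 598 RPKM after MYCN KD (log2 fold change -0.68, adjusted p = 0.00359 by limma). HSPA8, the constitutive HSP70, was 1225 and 1294 RPKM in the Ctrl samples against 878 and 834 RPKM after MYCN KD (log2 fold change -0.56, adjusted p = 0.00645 by limma).

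A list of 9 genes held heat-inducible chaperones and co-chaperones and the factors HSF1 and HSF2 that control them. Of the 5 tested, limma called 1 higher and 0 lower, against 25.3% higher and 22.8% lower of all tested genes. The median log2 fold change was -0.02, and the counts in the list were the same at an unadjusted p under 0.05 and by limma voom. HSF2 was called lower with median-of-ratios size factors and with quantile normalization. HSPB1, a small heat shock protein, was 258 and 235 RPKM in the Ctrl samples against 468 and 511 RPKM after MYCN KD (log2 fold change 0.99, adjusted p = 0.00515 by limma). The transcription factor genes HSF1 (log2 fold change -0.11) and HSF2 (-0.13) and the co-chaperone gene BAG3 (-0.02) did not pass the test.

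The mitochondrial chaperonin, a relative of TRiC made of HSPD1 and its lid HSPE1, was lower in both of its genes. HSPD1 was 260 and 306 RPKM in the Ctrl samples against 171 and 146 RPKM after MYCN KD (log2 fold change -0.83, SE 0.126, adjusted p = 0.0159 by limma). HSPE1 was 47.0 and 46.5 RPKM in the Ctrl samples against 28.7 and 29.1 RPKM after MYCN KD (log2 fold change -0.68, SE 0.0333, adjusted p = 0.00359 by limma). The difference of these changes from those of the TRiC subunits was not tested. Over all tested genes 22.8% were called lower. Of 4 chaperone genes that act on chains still on the ribosome, DNAJC2 (log2 fold change -0.82, adjusted p = 0.00359 by limma), NACA (-0.59, adjusted p = 0.00510 by limma) and BTF3 (-0.49, adjusted p = 0.00418 by limma) were called lower. HSPA14 was not (-0.30, adjusted p = 0.0535 by limma), though it was called lower in 5 of 13 alternatives, among them the fits without Ctrl replicate 1 and without MYCN KD replicate 1.

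**Figure D5:**
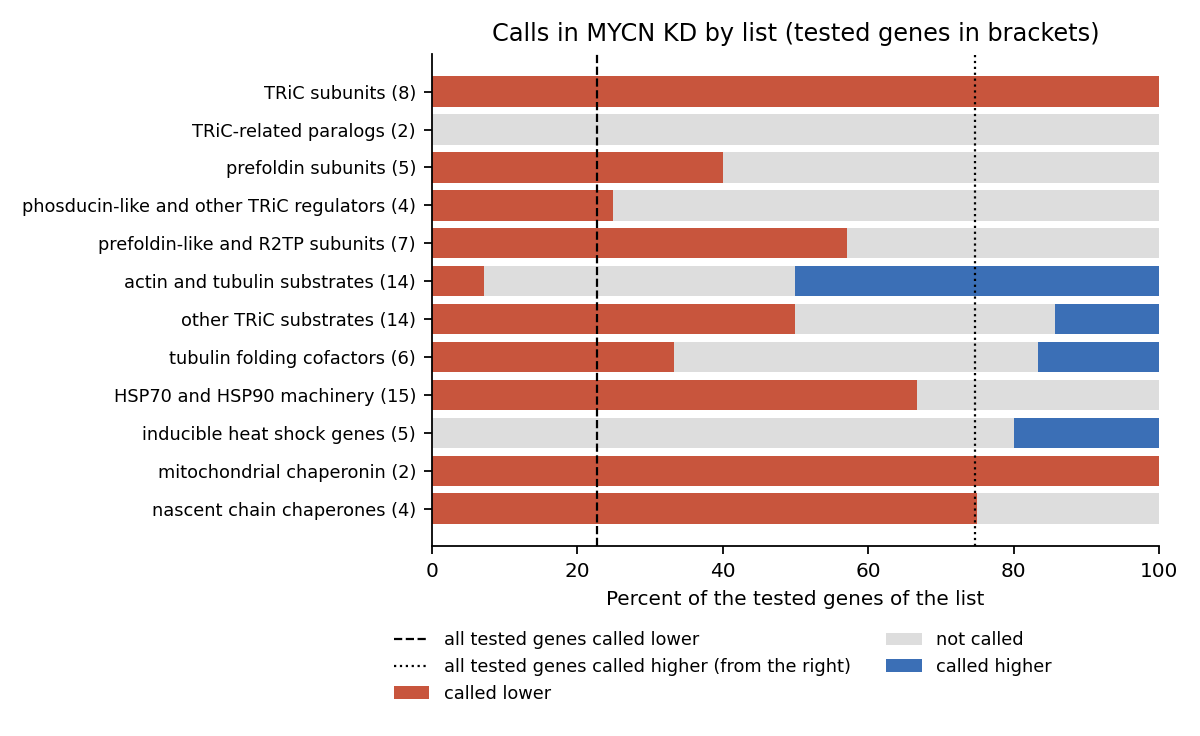
Percent of the tested genes of each list called lower, not called and called higher in MYCN KD (limma, adjusted p under 0.05), with the number tested in brackets a dashed line at the 22.8% of all tested genes called lower and a dotted line that marks, from the right, the 25.3% called higher. The 8 TRiC subunits and the 2 mitochondrial chaperonin genes were all called lower, and 7 of the 14 actin and tubulin genes were called higher.

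Last, the genes whose profile over the 4 samples lay nearest to the median profile of the TRiC subunits were sought, by Euclidean distance of the centred log2(RPKM + 1) values. The nearest were MEAF6, a subunit of histone acetyltransferase complexes (distance 0.00334), GPN3, a GTPase that takes part in the nuclear import of RNA polymerase II (0.00511), and the phosphodiesterase gene PDE3B (0.00610). FOXJ3, a forkhead factor gene (0.00813), and TRIP13, an ATPase of the mitotic checkpoint (0.0109), followed, and 267 genes outside TRiC lay within a distance of 0.1. With 4 samples in 2 groups the measure mainly ranks genes by the size of their change.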

How the data were processed

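The authors mapped RNA-seq reads to hg19 with HISAT2 (2.1.0 in the submitters' processing notes), counted RefSeq genes with featureCounts, modelled the counts with DESeq2, took out unwanted variation by RUVSeq and deposited, for each sample, RPKM computed from the normalised counts. The RUVSeq mode and number of factors are not given in the sources used here. The replicate spread may be smaller than between unadjusted libraries, so that standard errors and adjusted p-values may be too small. The labels and the methods differ on the siRNA concentration, and the value of the labels is printed.

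Here log2(RPKM + 1) of genes whose RPKM averaged 1 or more was fitted with limma 3.58.1 (R 4.3.3, lmFit, eBayes with a trend, no replicate block) on all 4 samples, two-sided, with Benjamini-Hochberg adjustment over all genes tested and calls at an adjusted p under 0.05. Fold changes on this scale understate low genes. Totals were recovered from the RPKM steps of small RNA genes of known length, 92.9% to 93.2% of which gave whole counts within 0.001. Each gene's counts came from the shortest length that gave whole counts in all 4 samples within 0.002 (2e-08 of large counts), found for all non-zero rows. The recovered counts are those after the authors' normalisation, also where they were given to voom. In a simulated data set of this size, unchanged genes made up a larger share of the calls than the 0.05 aimed at. Gene positions are from GENCODE v44lift37 (GRCh37). Members and lists were chosen with earlier results of these data known. Named genes were the subunits, MYCN, all members of lists of up to 7 genes, up to 4 called genes with the largest changes of longer lists, genes starting within 1000 bases on the other strand, snoRNAs inside subunits and the 5 nearest profiles. Some items of these lists are not reported here. Other genes named are single examples chosen after their values were seen. Nothing in the labels says that replicates came from separate cultures, so p-values measure only the spread between these samples.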

Additional observations from a re-analysis of the deposited data

How the results depend on the processing

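The 8 subunits kept a negative log2 fold change under all 13 alternatives, between -0.69 and -0.27. Among the alternatives that kept all 4 samples, the only subunit call lost was that of TCP1 once all samples were brought to an equal RPKM total (-0.32, adjusted p = 0.0594 by limma). Their median ran from -0.60 (median-of-ratios size factors) to -0.45 (quantile normalization), and without 1 library from -0.59 to -0.45. MYCN was called lower under every alternative, at -0.65 to -0.38. Over all genes, 1868 were called higher with a mean RPKM of at least 5, where fewer genes were tested, and without 1 library 2153 to 2429 were called lower and 2460 to 2781 higher. The voom form of limma on the recovered counts called 2579 lower and 2917 higher.

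The labels do not say whether same-numbered samples were paired, and a fit with the replicate block called 1851 genes lower, 2077 higher and all 8 subunits lower. A crossed replicate block, chosen after the opposite deviations were seen, called 5262 genes lower and 5910 higher. Leaving TUBB out of the actin and tubulin genes was also chosen after seeing the data. In fits without 1 library the lone sample of its group is assumed to vary like the other group. Passing the threshold could be easier in such fits than with all 4 samples, so that calls there are weak support. Each subunit had at least 4591 recovered counts in a sample, which are normalised counts and do not give the depth of raw reads. The 2 samples per group limit the results.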
